A study of Mus musculus with 8 samples.

Results

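The genes described here are 10 epithelial host-defence genes: the mucosal pentraxin Mptx1, the flagella-binding surface protein gene Lypd8, the secreted goblet and Paneth cell products Ang4 and Retnlb, the lectins Reg3b, Reg3g and Itln1, the phospholipase Pla2g2a, and the inducible genes Nos2 and Lcn2. They were taken by symbol from a table of 16130 genes, and all 10 had a row and passed the filter on low counts. Mptx1 was chosen by its measured values, the large spread of its counts between libraries, so its levels, fold change and correlations are a description. It is left out of the counts of genes that passed the test between housings, but not of the counts of correlations. The other 9 were chosen for their function, with earlier results of these data known. The RNA came from the distal colon of Tcf4Het/+ ApcMin/+ mice, so every group carried both a truncating allele of the tumour suppressor Apc and the allele labelled Tcf4Het/+. There were 4 libraries from mice kept in an enriched environment (EE) and 4 from mice kept conventionally (NE), in each case over 4 months. The labels name no other treatment. Strain, age, whether the tissue held tumours and whether a library stands for 1 animal are not stated in the sources used here, so p-values measure the spread between these samples, which may be technical.

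The colon is lined by epithelium that keeps bacteria at a distance with mucus and with secreted proteins. C-type lectins of the Reg3 family bind and kill bacteria and are induced through the interleukin 22 receptor and STAT3, while resistin-like molecule beta, the product of Retnlb, and the ribonuclease angiogenin 4, the product of Ang4, come from secretory cells and respond to type 2 cytokines or bacteria. Intelectin, the product of Itln1, recognises microbial sugars, lipocalin 2 holds bacterial siderophores, and the inducible nitric oxide synthase Nos2 makes an antimicrobial gas. Pla2g2a, a secreted phospholipase that attacks bacterial membranes, is also the best known candidate for a modifier of tumour number in ApcMin mice.

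Library totals ran from 4735764 to 10586851 counts. Levels are given as CPM, the counts of a gene as a share of its library's total after trimmed-mean (TMM) scaling. Colon epithelium was well represented, with a summed level of its 10 markers of 13020 to 16425 CPM in NE and 10012 to 15182 CPM in EE, and the distal colon gene Hoxb13 stood at 181 to 255 CPM in NE and 183 to 259 CPM in EE. Of 8 small intestine markers Lct, Apoa1, Fabp1 and Treh had no row and Apoa4 was at 0 to 1.74 CPM, but Fabp2, a fatty acid binding protein, was at 99.4 to 498 CPM and Alpi and Fabp6 were at 2.12 to 28.5 CPM, and the list summed to 322 to 522 CPM in NE and 110.3 to 491 CPM in EE. Library EE 4 stood apart, at 46.3 on the first principal component against −14.2 to 6.36 for the others, and its summed smooth muscle level was 589.9 CPM against 1989 to 4943 CPM elsewhere. In whole tissue, fewer cells of a type and less RNA per cell cannot be told apart. The log2 fold changes in the authors' deposited table have the sign opposite to EE minus NE for 97.8% of the genes tested here, and the table does not name its numerator. Whether that ratio is NE over EE or the count columns were exchanged cannot be told from the table. EE and NE below mean the libraries labelled so, and every direction would turn if the columns were exchanged.

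Per kilobase of merged GENCODE exons, Lypd8 was by far the most abundant of the 10, with a median level of 5764 CPM per kilobase over the 8 libraries (range 3328 to 8012). Mptx1 came next at 684 CPM per kilobase, but its range of 54.2 to 2832 overlapped that of the next gene, Ang4 (median 363, range 157 to 817). Below Ang4, Retnlb (187), Reg3b (161) and Itln1 (138 CPM per kilobase) followed with overlapping ranges. Reg3b was above Itln1 in 5 of 8 libraries and below Retnlb in 4 of 8, so the order of these neighbours did not hold from library to library. Reg3g (57.2) and Pla2g2a (54.9) could not be ordered either, with Reg3g higher in 2 of 8 libraries. Lcn2 was at 39.8 and Nos2 at 9.11 CPM per kilobase, and Lcn2 was above Nos2 in all 8 libraries. Lypd8 was above Mptx1 in all 8, and their ranges did not overlap.

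**Figure D1:**
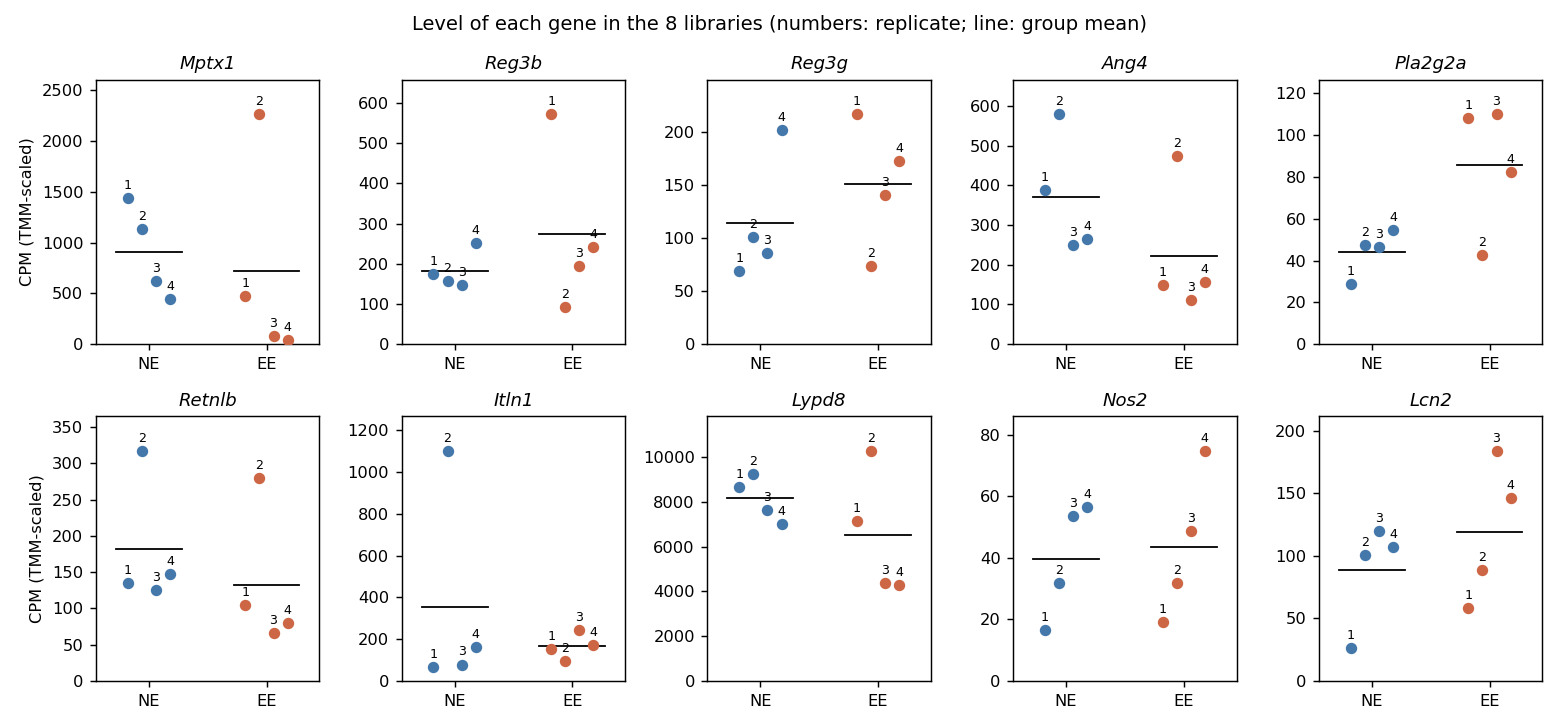
Each panel plots 1 gene's level in CPM (vertical axis, from 0) in the 4 NE libraries (blue) and the 4 EE libraries (orange); the number beside a point is the replicate and the line is the group mean. In each panel the NE and EE ranges overlap, Mptx1 runs from 43.3 to 2262 CPM within EE, and Itln1 has 1 high point, NE 2 at 1101 CPM.

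The comparison of housings asked whether these defence genes differed between EE and NE, and none of the 9 genes other than Mptx1 passed. With edgeR's quasi-likelihood test, 0 of the 9 had a Benjamini-Hochberg adjusted p under 0.05 over all genes, as had 0 (0%) of the 14311 genes tested. At an unadjusted p under 0.05 there was 1 of the 9, Pla2g2a, which was higher in EE, where 9.48% of all tested genes reached that level, 5.73% being higher in EE. In 0 of the 9 were the 4 EE values clear of the 4 NE values, as they were in 4.89% of all tested genes (2.87% higher in EE). DESeq2 called 12 genes (0.0839% of the 14302 to which it gave an adjusted p) and limma-voom 0 (0%), with 0 of the 9 among them. Itln1 had no adjusted p from DESeq2 and could not be called by it. The log2 fold change was positive in 5 of the 9 and negative in 4, against 50.3% positive over all tested genes, and its median was 0.14 against 0.00 over all tested genes. An FDR under 0.05 in the authors' deposited table belonged to 3 of the 9, Itln1, Pla2g2a and Ang4, and to 2.39% of all its genes.

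**Figure D2:**
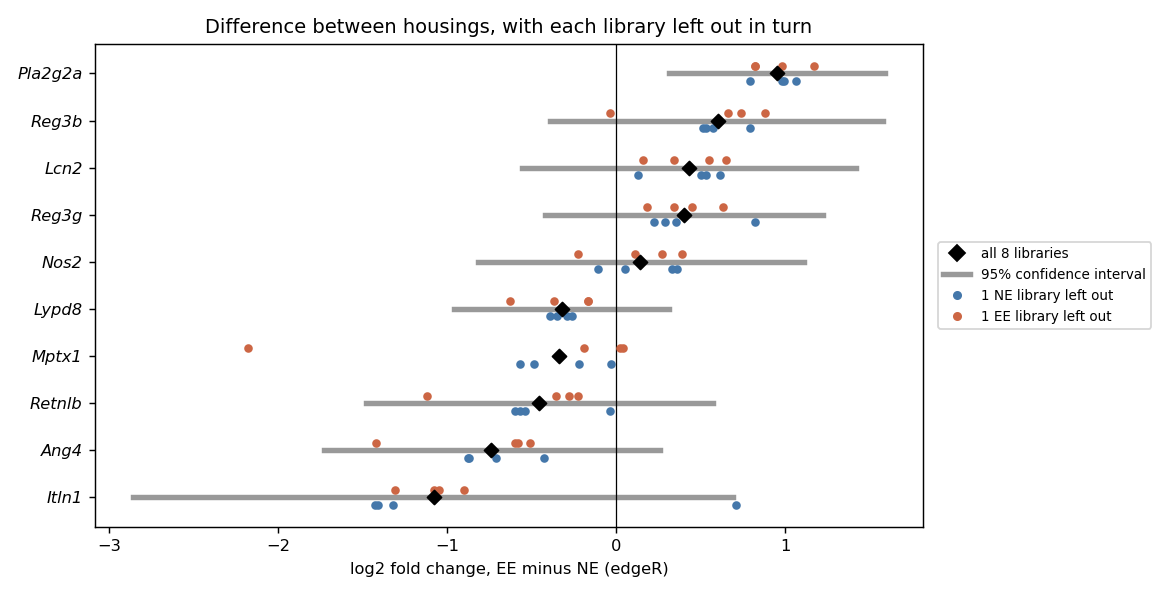
The horizontal axis is the log2 fold change, EE minus NE; diamonds are the values with all 8 libraries, grey bars their 95% confidence intervals, and small points the values with 1 NE (blue) or 1 EE (orange) library left out. The interval of Pla2g2a, 0.31 to 1.59, lies above 0, the other 8 intervals include 0, and Mptx1, chosen by its spread, is drawn without one.

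Mptx1 encodes a short pentraxin, a relative of C-reactive protein made in the colon mucosa, and it had the widest range of the 10. Its level was 1440, 1135, 617 and 440.4 CPM in NE 1 to NE 4 and 476, 2262, 83.7 and 43.3 CPM in EE 1 to EE 4. EE 2 was therefore the highest of all 8 and EE 3 and EE 4 the lowest, with a 52.3-fold range. The standard deviation of its log2 CPM over the 8 libraries was 1.98, the fifth largest among the 14311 genes, whose median was 0.28, and 1.90 within groups (median of all genes 0.27). The group means differed by less than the spread within either group, at 908 ± 461 CPM for NE against 716 ± 1049 CPM for EE (SD, n = 4), with a log2 fold change of −0.34 (SE 0.97). That value was −1.69 by limma-voom, which averages log values, −2.18 without EE 2 and 0.02 and 0.04 without EE 3 and EE 4. Of the 750 windows of 50 bases, the read length, in its transcript, 134 (17.9%) also occur in Mptx2, its neighbour in the family, whose own level in EE 2 was 1.91 CPM.

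Lypd8, which encodes a protein anchored on the apical face of colon epithelium that binds bacterial flagella, followed Mptx1 from library to library. It was at 8695, 9266, 7664 and 7032 CPM in NE 1 to NE 4 and at 7139, 10288, 4372 and 4273 CPM in EE 1 to EE 4. The highest library was again EE 2 and the lowest were EE 3 and EE 4, while its range was only 2.41-fold. Between the log2 levels of the 2 genes Pearson's r was 0.99 and Spearman's rho 0.98 (n = 8). No p is given for the relations of Mptx1, which was chosen by its spread in these libraries. EE 3 and EE 4 lay apart from the rest, and over the other 6 libraries r was 0.97. The housing difference of Lypd8 was −0.32 on the log2 scale (SE 0.28, 95% confidence interval −0.96 to 0.31, edgeR adjusted p = 0.663), and −0.63 without EE 2.

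Because the pair moved together, the 250 bases before each start site are shown, from RefSeq on GRCm38.p6, with motif matches in capitals. Searched on both strands were TATAAA (the TATA box), TTCNNNGAA (STAT factors), TTTATG (CDX factors), the NF-kappaB motif and CAAAGTCCA (HNF4), which occur in 12.4%, 7.02%, 10.8%, 3.86% and 0.384% of the 32851 promoters of the same length. Mptx1 (chr1:174330268-174330517, plus strand) holds 2 matches, both TATAAA read on the reverse strand, and Lypd8 (chr11:58378782-58379031, plus strand, the first of the 2 starts listed) holds none. The sequences, 5′ to 3′, are
Mptx1: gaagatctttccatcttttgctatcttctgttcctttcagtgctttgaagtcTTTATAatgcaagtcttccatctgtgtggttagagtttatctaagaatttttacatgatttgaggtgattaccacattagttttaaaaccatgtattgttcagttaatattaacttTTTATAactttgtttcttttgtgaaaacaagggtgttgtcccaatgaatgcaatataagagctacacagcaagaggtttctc
Lypd8: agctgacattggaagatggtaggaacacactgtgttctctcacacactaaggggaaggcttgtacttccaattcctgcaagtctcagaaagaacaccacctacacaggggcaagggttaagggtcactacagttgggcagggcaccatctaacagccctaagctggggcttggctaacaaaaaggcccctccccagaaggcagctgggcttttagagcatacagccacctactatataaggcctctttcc
The longest run the windows share is 9 bases.

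Medians of marker lists of several cell types, and of a list of signalling genes, moved with or against Mptx1 and Lypd8. The crypt stem cell list was at opposite values to Mptx1, with r = −0.96, rho = −0.95, and r = −0.91 without EE 3 and EE 4. Its member Lgr5, the receptor that marks crypt base stem cells, was at 34.3, 37.8, 48.4 and 51.5 CPM in NE 1 to NE 4 and at 47.4, 33.5, 85.5 and 108 CPM in EE 1 to EE 4, an order nearly the reverse of Mptx1. Summed over its 6 genes, the list ran from 276 to 414 CPM in NE and from 312 to 754 CPM in EE, and 5 of 5 tested genes had positive log2 fold changes. The goblet cell list followed Mptx1 (r = 0.87, rho = 0.88), with r = 0.75 without EE 3 and EE 4. Not every marker of the list did. Spink4 was at 1216 and 1330 CPM in EE 3 and EE 4 against 959 CPM in EE 2. Muc2 was at 4446 CPM in EE 4, within its NE range of 3988 to 4734 CPM. The small intestine list, based on Alpi, Fabp2 and Fabp6, had r = 0.95 with Mptx1 (rho = 0.93) and 0.79 without EE 3 and EE 4. Its genes did not all move alike. In EE 1 Alpi was at its highest level, 28.5 CPM, and Fabp6 at its lowest, 2.12 CPM. The smooth muscle list (r = 0.87, rho = 0.83) fell to r = 0.47 without EE 3 and EE 4. The list of signalling genes upstream of Reg3 and Retnlb (r = 0.90, rho = 0.83) had r = 0.61 without EE 3 and EE 4. Its median moved little, from −0.09 to 0.08 on the log2 scale, against −0.79 to 0.44 for the goblet list. Lypd8 passed adjustment with these lists by Pearson's r, over 130 relations between members and lists. Its r was −0.95 for crypt stem, 0.94 for small intestine, 0.90 for goblet, 0.89 for the signalling genes and 0.83 for smooth muscle. In that order the exact permutation p-values were adjusted to 0.0226, 0.0272, 0.0337, 0.0357 and 0.0357. Without EE 3 and EE 4 r was −0.85, 0.73, 0.70, 0.57 and 0.50. By exact permutation of Spearman's rho every adjusted p of Lypd8 was 0.0848 or higher. The mature colonocyte list had r = 0.90 with Mptx1 over 8 libraries and rho = 0.62, but r = 0.29 without EE 3 and EE 4, so that relation rests on those libraries. The summed mature colonocyte level was 6974 to 11524 CPM in NE and 3112 to 9885 CPM in EE, and the summed smooth muscle level, 3052 to 4943 and 589.9 to 3765 CPM, was lowest in the same EE 3 and EE 4. The part of these cell types in the levels of Mptx1 and Lypd8 was not tested.

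**Figure D3:**
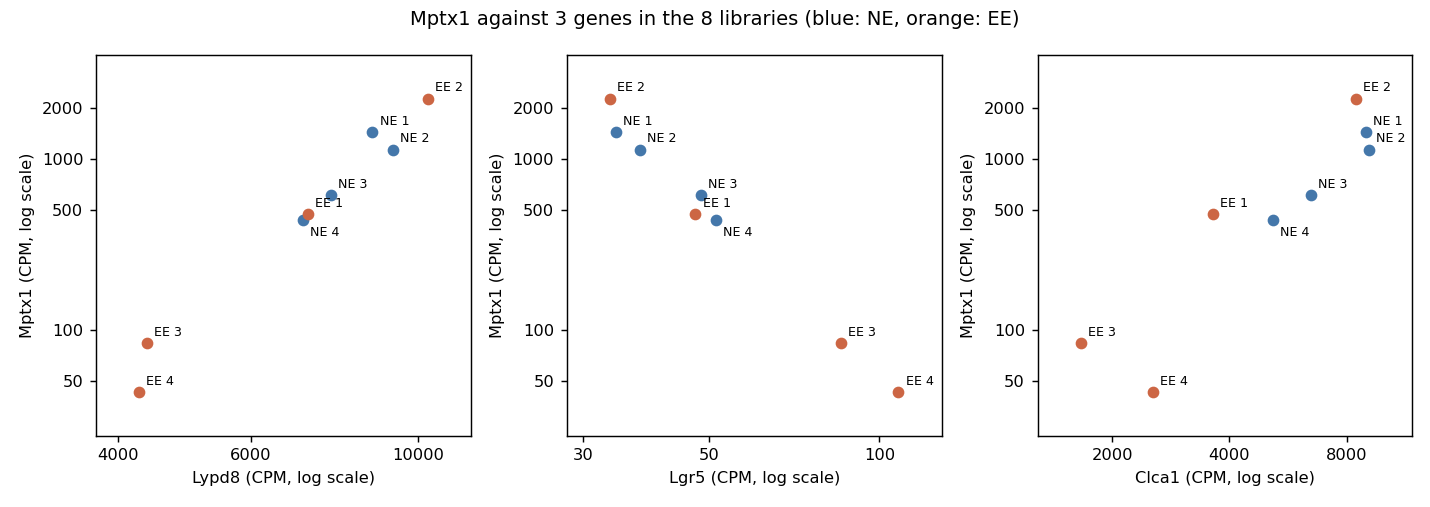
Mptx1 (vertical axis, CPM, log scale) is plotted against Lypd8, the stem cell gene Lgr5 and the goblet cell gene Clca1 (horizontal axes, CPM, log scale) in the 4 NE (blue) and 4 EE (orange) libraries. Clca1 has the widest range, 5.50-fold, of the 12 goblet markers, and not all of the others followed Mptx1. EE 2 has the highest Mptx1 and Lypd8 and the lowest Lgr5, and EE 3 and EE 4, at 83.7 and 43.3 CPM of Mptx1, lie at the other end of each panel.

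The rule for likeness, which took the 5 genes with the highest correlation of log2 CPM over the 8 libraries, gave Aldh6a1, a mitochondrial enzyme of valine breakdown (r = 0.995), the amino acid transporter gene Slc6a14 (0.987), Samd9l (0.984), Akr1c14 (0.982) and the steroid dehydrogenase gene Hsd3b2 (0.982) for Mptx1. The ranking left out the 10 genes themselves, and Lypd8, at 0.99, would stand among these 5. They were picked as the highest of the genes ranked, so no p belongs to them. Aldh6a1 stood at 66.4 CPM in EE 2 and at 29.6 and 26.2 CPM in EE 3 and EE 4, the same extremes as Mptx1. With Spearman's rho, or without EE 4, 1 of the 5 was still among the 5 most alike. For Reg3b the nearest gene was Bend7 (0.965), for Reg3g Ly6d (0.968) and for Retnlb Cpeb1 (0.951), at no more than 65.0 CPM in any library.

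Ang4 and Retnlb, both products of secretory epithelial cells, formed the second pair. Ang4 was at 388, 579, 250.3 and 264 CPM in NE 1 to NE 4 and at 148, 475, 111 and 156 CPM in EE 1 to EE 4. Libraries EE 1, EE 3 and EE 4 lay below every NE library and EE 2 lay above NE 1, NE 3 and NE 4. Retnlb was at 135, 317, 125 and 148 CPM in NE 1 to NE 4 and at 105, 279, 65.4 and 79.4 CPM in EE 1 to EE 4, with the same high libraries, NE 2 and EE 2, and the same low ones. Between Ang4 and Retnlb r was 0.94 (exact permutation p = 3.22e-04, adjusted over 45 pairs 0.00725) and rho 0.95 (exact permutation p = 0.00114, adjusted 0.0257), and r was 0.87 without NE 2 and EE 3.

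For Ang4 the log2 fold change was −0.74 (SE 0.45, 95% confidence interval −1.73 to 0.26, edgeR adjusted p = 0.567), and for Retnlb −0.46 (SE 0.46, interval −1.48 to 0.57, adjusted p = 0.704). Without EE 2 the values were −1.42 (adjusted p = 0.0954) and −1.12 (adjusted p = 0.156), and without NE 2 −0.43 and −0.04, so these single libraries set the size of both differences. In the authors' deposited table Ang4 had a log2 fold change of 0.87 with an FDR of 0.00855, and Retnlb 0.55 with an FDR of 0.227. The median of the list of 12 goblet cell markers moved with Ang4, with r = 0.91 (exact permutation p = 0.00126, adjusted over 130 relations 0.0272, and rho = 0.88, exact permutation p = 0.00724, adjusted 0.0929) and r = 0.91 without NE 2 and EE 3. The crypt stem list ran against Ang4 (r = −0.91, exact permutation p = 0.00340, adjusted 0.0357; rho = −0.81, exact permutation p = 0.0218, adjusted 0.123; r = −0.93 without these libraries) and the small intestine list with it (r = 0.88, exact permutation p = 0.00546, adjusted 0.0417; rho = 0.86, exact permutation p = 0.0107, adjusted 0.0929; r = 0.92 without them). The summed goblet level ran from 23457 to 29423 CPM in NE and from 11080 to 27266 CPM in EE, with 12 of 12 log2 fold changes negative, none of them past the threshold, and no marker at 0. The part of these cell types in the values of Ang4 and Retnlb was not tested. Of the windows of 50 bases in Ang4, 4.70% also occur in Ang2 or Ang5.

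**Figure D4:**
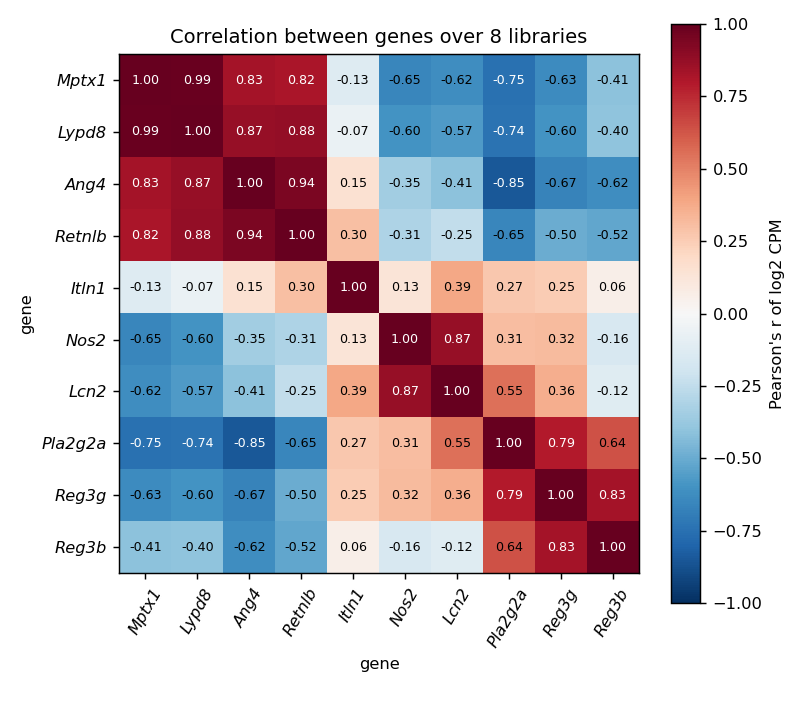
The grid gives Pearson's r of log2 CPM over the 8 libraries for each pair of the 10 genes, which are listed on both axes, red for positive and blue for negative values. Among Mptx1, Lypd8, Ang4 and Retnlb r is 0.82 to 0.99, between Nos2 and Lcn2 0.87 and among Reg3b, Reg3g and Pla2g2a 0.64 to 0.83, and Itln1 is at 0.39 or below with every gene.

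Of the 45 pairs of members, 5 passed adjustment by Pearson's r and 2 of these, Mptx1 with Lypd8 and Ang4 with Retnlb, by Spearman's rho as well. The pair with Mptx1, which was chosen by its spread, is a description. The others were Reg3b with Reg3g, Nos2 with Lcn2, and Ang4 with Lypd8 (r = 0.87, exact permutation p = 0.00387, adjusted 0.0348; rho = 0.81, exact permutation p = 0.0218, adjusted 0.122), the last with r = 0.81 without NE 2 and EE 3.

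Reg3b (78370657 to 78373466) and Reg3g (78466269 to 78468872) are lectin genes of 1 family on chromosome 6. Reg3b was at 174, 156, 147 and 251 CPM in NE 1 to NE 4 and at 572, 92.8, 195 and 241 CPM in EE 1 to EE 4. Reg3g was at 69.2, 101, 85.6 and 202 CPM in NE and at 217, 73.9, 141 and 173 CPM in EE. For both genes EE 1 was the highest library, NE 4 came next, and EE 2, the library with the most Mptx1, was the lowest or the next to lowest. Between Reg3b and Reg3g r was 0.83 (exact permutation p = 0.00196, adjusted over 45 pairs 0.0246), rho 0.86 (exact permutation p = 0.0107, adjusted 0.122), and r 0.87 without EE 1 and EE 2.

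The housing difference of Reg3b was 0.60 on the log2 scale (SE 0.44, 95% confidence interval −0.39 to 1.58, edgeR adjusted p = 0.616) and that of Reg3g 0.40 (SE 0.37, interval −0.42 to 1.22, adjusted p = 0.677). Reg3b rested on EE 1: without it the value was −0.04, and for Reg3g it was 0.18. Reg3g moved most without NE 4, to 0.82. No window of 50 bases is shared between the transcripts of the 2 genes or with any other GENCODE gene, so reads of this length could tell them apart. Reg3a, another gene of the family, had 0 to 12 counts per library and was not tested. Reg3b was at low values where the median of the posterior Hox list was high (r = −0.93, exact permutation p = 8.43e-04, adjusted over 130 relations 0.0226; rho = −0.90, exact permutation p = 0.00456, adjusted 0.0848; r = −0.76 without EE 1 and EE 2). Not every gene of the list ran against Reg3b. Hoxd11 was at 3.82 CPM in EE 1, the highest library of Reg3b, and at 23.2 CPM in EE 2, the lowest. Hoxd13 was also highest in EE 2, at 107 CPM. Hoxa13 went the other way, at 57.5 CPM in EE 1 and 39.2 CPM in EE 2. Hoxb13 differed little between them, at 189.6 and 183 CPM. The summed level of the 5 listed genes was 278 to 389 CPM in NE and 271 to 362 CPM in EE. The part of the position along the colon in the level of Reg3b was not tested.

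The promoters of the pair are shown because the 2 genes moved together, as 250 bases before the start, RefSeq, GRCm38.p6, with the same motifs in capitals. Reg3b (chr6:78370635-78370884, plus strand) holds TTTATG 172 bases, TTCTTGGAA, a match to the STAT motif, 129 bases and TATAAA 29 bases before the start. Reg3g (chr6:78468875-78469124, minus strand) holds TATAAA 27 bases before the start and once more on the reverse strand at 161 bases, and no match to TTCNNNGAA in this window. The sequences, 5′ to 3′, are
Reg3b: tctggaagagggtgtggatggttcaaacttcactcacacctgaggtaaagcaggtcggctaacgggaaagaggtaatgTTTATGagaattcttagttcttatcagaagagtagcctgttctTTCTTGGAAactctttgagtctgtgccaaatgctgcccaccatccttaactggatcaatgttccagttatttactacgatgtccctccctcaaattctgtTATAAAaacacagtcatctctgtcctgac
Reg3g: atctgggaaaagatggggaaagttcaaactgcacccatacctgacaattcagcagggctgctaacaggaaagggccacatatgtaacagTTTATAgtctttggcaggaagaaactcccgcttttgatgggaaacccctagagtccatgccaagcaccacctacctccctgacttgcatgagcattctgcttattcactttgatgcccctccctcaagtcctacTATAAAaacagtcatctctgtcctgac
Aligned over 246 bases, the windows were identical at 175 (71.1%), with a longest shared run of 20 bases. A match is a description of letters, not of a bound site.

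Itln1 stood out by a single library. It was at 65.5, 1101, 78.5 and 161 CPM in NE 1 to NE 4 and at 153, 96.5, 242 and 171 CPM in EE 1 to EE 4, so NE 2 lay 4.56-fold above the next library and the other 3 NE libraries overlapped with EE. The log2 fold change was −1.08 (SE 0.80, 95% confidence interval −2.86 to 0.69, edgeR adjusted p = 0.612) with NE 2 and 0.71 (adjusted p = 0.812) without it, and limma-voom gave −0.16 with all 8 libraries. In the authors' deposited table Itln1 had an FDR of 2.36e-04 and a log2 fold change of 0.16, the smallest of the 3 members with an FDR under 0.05. DESeq2 gave no adjusted p for it.

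The next gene in the genome moved with it. Itln1 lies on chromosome 1 (171518122 to 171535294, minus strand, GRCm38), and 1199 bases beyond it lies Gm9765 (171515233 to 171516922), annotated as an unprocessed pseudogene, whose transcript aligns to Itln1 over 320 bases with 92.8% identity. Gm9765 had 844 counts in NE 2, 1 count in EE 4 and 0 counts in each of the other 6 libraries, although Itln1 had counts in all of them. A count of 0 allows up to 3 counts, which is 0.282 to 0.637 CPM in these libraries, and covers counting error only. Of the 1132 windows of 50 bases in Itln1, 11 (0.972%) also occur in Gm9765 without a mismatch. Whether reads with mismatches were placed on the wrong gene of the pair was not tested. F11r and Cd244, genes to either side of the pair, were in NE 2 at 363 and 18.1 CPM, within the ranges of the other libraries.

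Further along the same chromosome, between Itln1 and Mptx1, other genes were high in few libraries. Mptx2 (173274382 to 173277777) was at 119 and 59.7 CPM in NE 2 and NE 3, at 0.947 and 5.14 CPM in NE 1 and NE 4, and at 0.849, 1.91, 9.67 and 29.6 CPM in EE 1 to EE 4. The interferon-inducible gene Ifi202b (173962568 to 173982744) had 124 and 257 counts in NE 2 and NE 3 and 1 count in each of the other 6. Mptx1 itself (174330518 to 174332873) did not follow this split, with 1135 and 617 CPM in NE 2 and NE 3, between its values in NE 1 and NE 4. Of the 37 genes with at least 100 counts in the 3015 kilobases around them, 2, Gm9765 and Itln1, had a highest library more than 3-fold above the next. Mptx2, Gm9765 and Ifi202b were singled out after their values were seen. The labels give no strain, and the part of the animals' genetic background in these values was not tested.

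**Figure D5:**
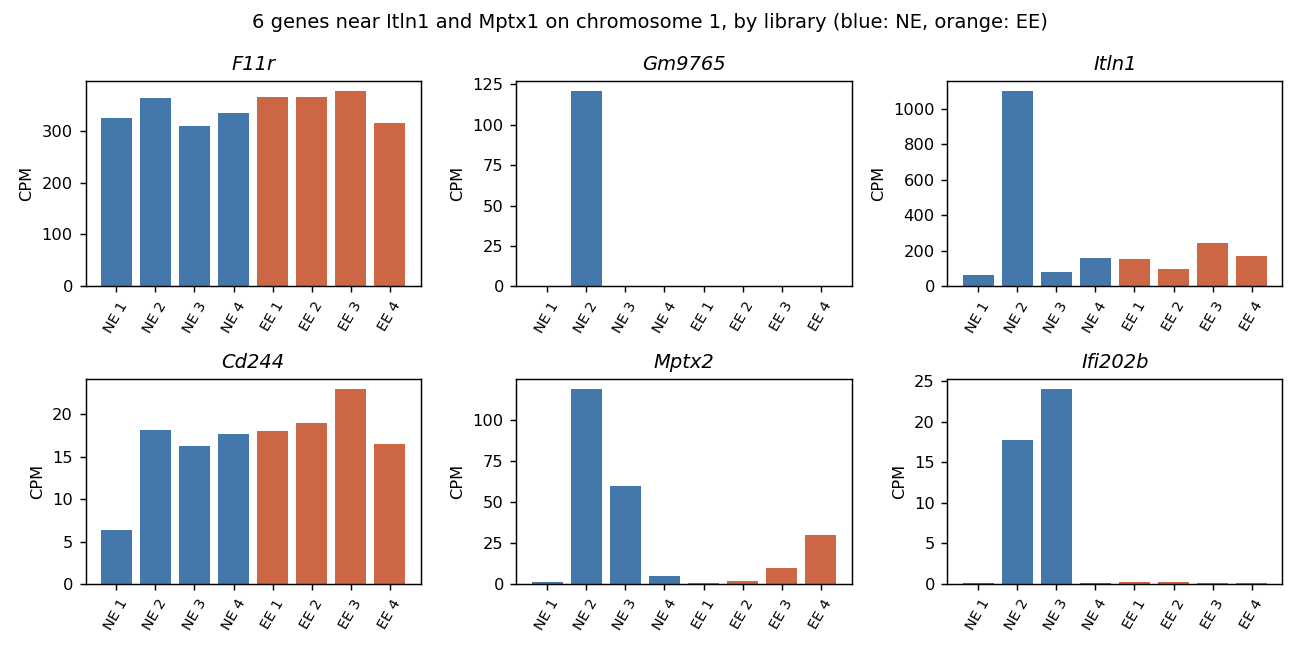
Bars give the level in CPM (vertical axes, from 0) of 6 genes of this stretch of chromosome 1 in each NE (blue) and EE (orange) library. Gm9765 and Itln1 are high in NE 2, Mptx2 and Ifi202b in NE 2 and NE 3, while F11r and Cd244 beside Itln1 are not raised in NE 2.

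Pla2g2a was the member closest to a difference. It was at 28.9, 47.4, 46.6 and 54.4 CPM in NE 1 to NE 4 and at 108, 42.7, 110.0 and 82.3 CPM in EE 1 to EE 4. Libraries EE 1, EE 3 and EE 4 lay above every NE library, and EE 2 lay within the NE range. The log2 fold change was 0.95 (SE 0.29, 95% confidence interval 0.31 to 1.59), with an edgeR adjusted p of 0.520 over all genes, and it ran from 0.79 to 1.17 over the fits that left out 1 library; adjusted p was 0.0764 without EE 2. In the authors' deposited table it had a log2 fold change of −0.80 and an FDR of 0.00101. GENCODE annotates Pla2g2a (chromosome 4, 138831857 to 138835186) as a polymorphic pseudogene, and the laboratory strain C57BL/6 is known to carry a frameshift in it. It overlaps Pla2g5 on the opposite strand, which had 116 to 295 counts per library and a log2 fold change of −0.44 (SE 0.16), and whether counting used the strand is not given in the sources used here.

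Pla2g2a ran against the goblet list (r = −0.92, exact permutation p = 8.68e-04, adjusted over 130 relations 0.0226; rho = −0.90, exact permutation p = 0.00456, adjusted 0.0848; r = −0.95 without EE 1 and EE 3) and with the crypt stem list (r = 0.90, exact permutation p = 0.00285, adjusted 0.0337; rho = 0.90, exact permutation p = 0.00456, adjusted 0.0848; r = 0.93 without EE 1 and EE 3). It also ran against the small intestine list (r = −0.88, exact permutation p = 0.00437, adjusted 0.0378; rho = −0.83, exact permutation p = 0.0154, adjusted 0.100; r = −0.89 without EE 1 and EE 3). EE 1, EE 3 and EE 4, its 3 highest libraries, were also the 3 highest of the stem cell list and the 3 lowest of the goblet list in summed level. Of 9 Paneth cell markers, which include Itln1 and Mptx2, Defa30 and Ang6 had no row, Defa22 was at 0 in 3 libraries, and the summed level was 394 to 1778 CPM in NE and 423 to 1376 CPM in EE. These relations are over all 8 libraries, so a difference between housings shared by gene and list enters r. The part of these cell types in the level of Pla2g2a was not tested.

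Nos2 and Lcn2, which inflamed epithelium and neutrophils switch on, varied together across libraries of both housings. Nos2 was at 16.6, 31.7, 53.6 and 56.5 CPM in NE 1 to NE 4 and at 19.3, 31.8, 48.7 and 74.8 CPM in EE 1 to EE 4. Lcn2 was at 26.1, 101, 119.6 and 107 CPM in NE 1 to NE 4 and at 58.4, 89.0, 184 and 146 CPM in EE 1 to EE 4. NE 1 and EE 1 had the lowest values of both genes. The groups overlapped, but EE 4 lay above every NE library for Nos2, and EE 3 and EE 4 did for Lcn2. Between Nos2 and Lcn2 r was 0.87 (exact permutation p = 0.00218, adjusted over 45 pairs 0.0246) and rho 0.81 (exact permutation p = 0.0218, adjusted 0.122), but r was 0.59 without NE 1 and EE 1, so the relation rests in part on those libraries.

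The log2 fold change of Nos2 was 0.14 (SE 0.44, 95% confidence interval −0.82 to 1.11, edgeR adjusted p = 0.906) and that of Lcn2 0.43 (SE 0.45, interval −0.56 to 1.42, adjusted p = 0.712). Nos2 turned negative without NE 1 (−0.11) or without EE 4 (−0.23), and Lcn2 was 0.13 without NE 1 and 0.16 without EE 3. Neutrophil markers were summed to 195 to 931 CPM in NE and 143 to 665 CPM in EE, lowest in NE 1 and NE 2 and in EE 1. Of these 12 markers Mpo, Elane and Camp had no row, and of the 8 tested 6 had a negative log2 fold change. Lcn2 ran against the epithelial markers (r = −0.87, exact permutation p = 0.00603, adjusted over 130 relations 0.0435; rho = −0.86, exact permutation p = 0.0107, adjusted 0.0929; r = −0.86 without NE 1 and EE 1). With the neutrophil list Nos2 had r = 0.75 (exact permutation p = 0.0409, adjusted 0.161), and 0.28 without NE 1 and EE 1. Lcn2 had r = 0.66 with that list (exact permutation p = 0.0674, adjusted 0.209), and −0.10 without NE 1 and EE 1. Neither passed adjustment. The part of neutrophils in Nos2 and Lcn2 was not tested. Of the 130 relations between members and lists 18 passed adjustment by Pearson's r and 0 by Spearman's rho, whose lowest adjusted p was 0.0848. These counts include Mptx1, whose relations are a description, and the share of other genes that would pass with the same lists was not computed.

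Other antimicrobial genes were taken as a list. Of 55 listed genes 41 had a row and 39 were tested, and with edgeR's test 0 passed in either direction, 1 at an unadjusted p under 0.05 (the chemokine gene Ccl6). The log2 fold change was positive in 15 and negative in 24, with a median of −0.21 against 0.00 over all tested genes. Zg16, a goblet cell lectin that binds Gram-positive bacteria, was at 2147 to 3250 CPM in NE and 1346 to 3116 CPM in EE. The lysozyme genes Lyz1 and Lyz2 were at 136 to 606 and 319 to 599 CPM in NE and at 122 to 539.8 and 179 to 797 CPM in EE. These ranges overlapped, as did the groups of all 39 tested genes. Pglyrp2, a peptidoglycan-cleaving amidase too low to be tested, had 9, 10, 14 and 8 counts in NE 1 to NE 4 and 0, 4, 2 and 2 counts in EE 1 to EE 4, at 1.31 to 1.43 CPM in NE and 0 to 0.766 CPM in EE, which did not overlap. S100a8 and S100a9, the calprotectin subunits carried by neutrophils, were at 46.9 to 277 and 75.5 to 497 CPM in NE and at 34.0 to 221 and 34.8 to 316 CPM in EE. The epithelial oxidase gene Duox2 and its maturation factor Duoxa2 gave −0.04 (SE 0.23) and 0.08 (SE 0.28) on the log2 scale. Reg4, a secretory cell lectin, had −0.38 (SE 0.19, edgeR adjusted p = 0.529), and the acute phase genes Saa1 and Saa3 −0.28 (SE 0.27) and −0.21 (SE 0.50). The iron-binding protein gene Ltf was at 1.58 to 9.85 CPM in NE and 1.91 to 5.89 CPM in EE.

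The signalling genes upstream of Reg3 and Retnlb were also tested as a list. Of 41 genes 37 had a row and 35 were tested, 0 passed in either direction with edgeR's test, and 1, the interleukin 17 receptor gene Il17rc, had an unadjusted p under 0.05. The median log2 fold change was −0.05, with 15 positive and 20 negative. The groups did not overlap in 3 of the 35, against 4.89% of all tested genes, and all 3 were lower in EE. They were the shared interleukin 6 receptor subunit gene Il6st (141 to 147 CPM in NE, 108 to 137 CPM in EE), the interferon gamma receptor gene Ifngr1 (327 to 347 and 199.8 to 313 CPM) and the fucosyltransferase gene Fut2 (184 to 234 and 155 to 183 CPM), each with an edgeR adjusted p of 0.520. These 3 and Pglyrp2 were named after their values were seen. The cytokine genes Il22, Il13 and Ifng had no row, and Il17a had 1 to 9 counts in the NE libraries and 1, 10, 63 and 16 counts in EE 1 to EE 4. The receptor subunits Il22ra1 and Il10rb gave −0.38 (SE 0.23) and −0.20 (SE 0.14) on the log2 scale, Il17ra and Il17rc −0.05 (SE 0.15) and −0.45 (SE 0.19). Stat3, which carries the interleukin 22 signal, was at 184 to 214 CPM in NE and 187 to 265 CPM in EE, and its feedback inhibitor Socs3 at 44.6 to 70.1 and 37.8 to 93.8 CPM. The cytokine gene Il6 was at 0.430 to 6.32 CPM over the 8 libraries, and the range was 7.58-fold for Il1b, 5.44-fold for Il23a and 6.16-fold for Reg3b. For the type 2 arm, Il4ra, Il13ra1 and Stat6 gave 0.08 (SE 0.14), −0.26 (SE 0.15) and −0.09 (SE 0.11). The alarmin gene Il33 was at 25.6 to 43.4 CPM in NE and 38.0 to 51.7 CPM in EE (log2 fold change 0.38, SE 0.17, edgeR adjusted p = 0.520). Il18 and the adaptor gene Myd88 gave −0.25 (SE 0.18) and 0.10 (SE 0.15).

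All 10 genes varied more between libraries of 1 housing than the median gene did. Within groups, the standard deviation of log2 CPM was above the median of all genes (0.27) in all 10, from 0.45 for Lypd8 to 1.90 for Mptx1, with 1.37 for Itln1 and 0.53 to 0.90 for the other 7. Mptx1 was chosen for this measure, and the values are given as a description.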

How the data were processed

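Total RNA of the distal colon was made into stranded libraries depleted of ribosomal RNA and read as single ends of 50 bases, per the labels' protocols. The submitters' processing notes name Novoalign 2.08.01, DESeq 1.14.0 and build mm10; for annotation, counting program and strand setting the sources used here give nothing. The authors deposited raw read counts for 16130 genes with their own log2 fold change and FDR (an adjusted p-value), per the file headers. The members and gene lists were chosen with earlier results of these data known.

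Counts were fitted in R 4.3.3 with edgeR 4.0.16 (filterByExpr, 14311 genes kept, TMM, robust quasi-likelihood test, Benjamini-Hochberg, threshold 0.05, no covariate); the standard error is the log2 fold change divided by the square root of F. Log2 CPM used a prior count of 2. DESeq2 1.42.0, limma-voom (limma 3.58.1), RLE and upper-quartile scaling, other filters, a replicate block and each library left out were alternatives. Named genes were the 10 members, genes fixed by name from the lists, and the 5 genes (mean of at least 1 CPM) most correlated with Mptx1, Reg3b, Reg3g and Retnlb, leaving out the 10 members. List values per library are medians of centred log2 CPM, without the members. Correlations were tested by exact permutation of 40320 pairings, two-sided, over all 8 libraries without regard to housing. Coordinates, exon lengths and shared windows come from GENCODE M21 (GRCm38, the same build as mm10), where all 10 members matched; promoters of 7 matched in RefSeq (not Pla2g2a, Retnlb and Nos2). On counts simulated for EE against NE over 14311 genes, the edgeR test recovered 56 of 100 genes changed 2-fold and 89 of 100 changed 4-fold, with 8 false calls. DESeq2 made 32 false calls on the same counts. The changed genes were drawn at random and each gene varied independently, so recovery of the more variable members was not measured. Every pair of libraries in a group differed by more than sampling noise (smallest chi-square over genes 7.15 times its degrees of freedom).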

Additional observations from a re-analysis of the deposited data

Results flagged for a closer look

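Of 70 groups of 4 values, each 1 gene in NE or in EE with at least 10 counts in a library, 5 held a library whose gap to the nearest of the others was too large a share of the group's range by Dixon's 95% critical value, and chance flags about 1 group in 20. Itln1 was at 1101 CPM in NE 2, against 65.5 to 161 CPM in the other NE libraries. Retnlb was at 317 CPM in NE 2, against 125 to 148 CPM. Ang4 was at 475 CPM in EE 2, against 111 to 156 CPM in the other EE libraries. Lyz2 was at 599 CPM in NE 4, against 319 to 335 CPM. Il17rc was at 38.8 CPM in EE 3, against 58.8 to 61.8 CPM.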

How the results depend on the processing

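The count of genes past the threshold, 0 with all libraries, was 12 by DESeq2 and ran from 0 to 1 over the fits that left out 1 library (1 without EE 2). The count of members past it was 0 under every alternative run, though DESeq2 gave Itln1 no adjusted p. Over 15 alternatives each, Reg3g, Ang4, Pla2g2a, Retnlb, Lypd8 and Lcn2 kept their direction. Direction turned for Mptx1 without EE 3 (0.02) and without EE 4 (0.04), for Reg3b without EE 1 (−0.04), for Itln1 without NE 2 (0.71) and with the replicate block (0.08), and for Nos2 without NE 1 (−0.11) and without EE 4 (−0.23). Over the fits that left out 1 library, Mptx1 ran from −2.18 to 0.04, Reg3b from −0.04 to 0.88, Itln1 from −1.43 to 0.71 and Nos2 from −0.23 to 0.39. By limma-voom Mptx1 was −1.69 and Itln1 −0.16. The cause was not tested. With the replicate number as a block 0 genes and 0 members passed and Mptx1 was −1.81. Same-numbered libraries deviated together only for number 1 (r = 0.25, against 0.01, −0.18 and −0.04). The labels do not say what the numbers mean, so whether they pair the samples cannot be told. Of the 5 genes most like each of Mptx1, Reg3b, Reg3g and Retnlb, 1, 1, 2 and 1 stayed with Spearman's rho and 1, 3, 2 and 1 without EE 4. With 4 libraries a group the 95% intervals of 8 of the 9 members other than Mptx1 included 0, and that of Pla2g2a did not.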
